A study of Mus musculus with 22 samples.

Results

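Transcripts of 10 genes of the PARP family were measured in mouse kidney: Parp1, Parp2, Parp3, Parp4, Parp6, Parp8, Parp9, Parp10, Parp12 and Parp14. They were chosen by gene symbol from the 55487 mouse genes of the deposited count table, with earlier results of these data known. All 10 had enough counts to be tested. The kidneys came from wild-type males of the strain C57BL/6JRj, and each gave 1 library, read at the 3′ ends of poly(A) transcripts. Young mice were 4 months old (n = 6) and old mice 21 months (n = 8), both without supplement. A further 8 old mice of 21 months received nicotinamide, the amide form of vitamin B3, in their food at 1.6 g per kg for 14 weeks, a daily dose of 200 mg per kg of body weight.

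PARP enzymes cut NAD and attach its ADP-ribose part to proteins or nucleic acids, and they release nicotinamide as the other product. Nicotinamide is thus a precursor of new NAD, a product of PARP reactions and, at high concentration, an inhibitor of PARP enzymes. Some members build long ADP-ribose chains at broken DNA, and many others attach single units. Another set is induced by interferon and takes part in antiviral and inflammatory responses. In the kidney, PARP1 activity has mostly been studied in acute tubular injury, where strong activation can drain cellular NAD.

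The members fall into 3 classes by their known roles. The DNA-break class holds Parp1 (ENSMUSG00000026496), which senses strand breaks and makes most cellular poly(ADP-ribose), Parp2 (ENSMUSG00000036023), its partner in single-strand break repair, and Parp3 (ENSMUSG00000023249), which acts in double-strand break joining. The interferon-inducible class holds Parp9 (ENSMUSG00000022906), which works in a complex with the ubiquitin ligase Dtx3l, and Parp10 (ENSMUSG00000063268), an enzyme that adds single ADP-ribose units. It also holds Parp12 (ENSMUSG00000038507), an antiviral zinc finger protein, and Parp14 (ENSMUSG00000034422), a macrodomain protein linked to STAT6 signalling and macrophage activation. The third class holds Parp4 (ENSMUSG00000054509) of the vault particle, and Parp6 (ENSMUSG00000025237) and Parp8 (ENSMUSG00000021725), which add single ADP-ribose units.

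Promoter windows, 250 bases before to 50 after the gene start, were found for 7 of the 10 members in a RefSeq table of build GRCm38.p6 (Parp1, Parp2, Parp3, Parp4, Parp6, Parp8 and Parp12). Parp9, Parp10 and Parp14 were not in it. The windows were searched on both strands for the core of the interferon-stimulated response element (a pair of GAAA runs with 2 bases of any kind between them), for TTCNNNGAA, the gamma-activated site, and for GGGCGG, the GC box. Of all 32851 promoters of this length in the table, 3.44% held the first, 8.30% the second and 35.7% the third. The bases before the gene start are shown for Parp12, the only interferon-inducible member with a window, for Parp4, the only member with a response element core, and for Parp1, which had the most GC boxes. Capitals mark response element cores in Parp4 and GC boxes in Parp1. Parp12 had no match of any of the 3 motifs and so has no capitals.
Parp12 (chr6:39118350-39118599, minus strand): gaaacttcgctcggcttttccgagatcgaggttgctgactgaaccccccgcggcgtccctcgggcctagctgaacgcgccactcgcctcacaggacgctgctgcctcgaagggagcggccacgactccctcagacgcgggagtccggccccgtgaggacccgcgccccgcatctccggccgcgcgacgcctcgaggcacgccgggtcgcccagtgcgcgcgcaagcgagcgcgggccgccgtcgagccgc
Parp4 (chr14:56575369-56575618, plus strand): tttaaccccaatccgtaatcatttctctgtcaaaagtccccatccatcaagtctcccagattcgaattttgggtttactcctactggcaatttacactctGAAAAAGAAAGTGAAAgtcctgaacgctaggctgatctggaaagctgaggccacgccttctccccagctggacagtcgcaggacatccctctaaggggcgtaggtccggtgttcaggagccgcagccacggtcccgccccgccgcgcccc
Parp1 (chr1:180568641-180568890, plus strand): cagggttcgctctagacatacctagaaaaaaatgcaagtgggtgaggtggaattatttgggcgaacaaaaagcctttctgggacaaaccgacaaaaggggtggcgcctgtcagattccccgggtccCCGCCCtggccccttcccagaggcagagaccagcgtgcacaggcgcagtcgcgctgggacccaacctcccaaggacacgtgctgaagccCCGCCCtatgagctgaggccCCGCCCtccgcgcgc
The Parp4 window held 2 overlapping response element cores, starting 150 and 144 bases before the gene start. The Parp1 window held 4 GC boxes, of which 3 lie in the bases shown and 1 after the gene start. The gamma-activated site matched in none of the 7 windows. A match is a run of letters and not a binding site.

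Depth was 3351065 to 8319865 gene counts per kidney, lowest in young replicate 6. The p-values weigh differences between groups against the spread between these animals, estimated over all 3 groups. The members had 6 to 409 counts per kidney. Levels are CPM, the counts of a gene per 1000000 counts of its library, after scaling by TMM factors, and all tests are edgeR quasi-likelihood tests over the 22 kidneys, adjusted by Benjamini-Hochberg over 14683 genes and called at an adjusted p below 0.05. Kidney-defining genes (nephron segment and podocyte markers such as Slc34a1, Umod, Aqp2 and Nphs1) were all detected in each group, at a summed 25774 to 29963 CPM in young, 18560 to 25038 in old and 14834 to 29102 CPM in nicotinamide-fed kidneys. The kidney-defining sum was lowest in old replicate 7 and nicotinamide replicate 1, and nicotinamide replicate 7 stood apart in T cell markers. Results that rest on these 3 kidneys or on young replicate 6 are given with and without the 4. In whole tissue, more cells of a type and more RNA per cell cannot be told apart.

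Old against young kidneys addresses how these genes differ with age. Of the 10 members 1 passed, Parp9, which was higher in old kidneys, where 3.9% of all tested genes were called higher, 3.15% lower and 7.04% in either direction. The 4 interferon-inducible members had log2 fold changes between 0.23 and 1.07, all positive (median 0.84), and the 3 DNA-break members had a median of 0.33. The median over all tested genes was 0.01. At an unadjusted p below 0.05 there were 3 interferon-inducible members (Parp9, Parp12 and Parp14) and 1 DNA-break member (Parp3), all higher in old kidneys, where 20.7% of all tested genes lay below that value.

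Parp9 stood at 8.46 to 10.8 CPM in the 6 young kidneys (median 9.67) and at 12.8 to 28.1 CPM in the 8 old kidneys (median 18.3). Every old kidney lay above every young kidney, which held for 1.33% of all tested genes in that direction and for 1.31% in the other. The mean rose from 9.68 ± 1.01 (SD, n = 6) to 18.2 ± 5.20 CPM (n = 8), 1.88-fold (95% interval 1.26 to 2.80; log2 fold change 0.91 ± 0.28 SE, edgeR adjusted p = 0.0459). The call lies close to the threshold and was lost in 14 of 31 alternatives (adjusted p 0.000802 to 0.107). Of these 14, 13 left out 1 kidney (any of the 6 young, old replicates 2, 5, 6, 7 or 8, or nicotinamide replicates 2 or 4, which enter this comparison only through the estimate of spread) and 1 was limma-voom. Without the 4 kidneys the log2 fold change was 0.91 and the adjusted p = 0.00338 in edgeR.

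In the annotation the 3′ end of Parp9, where these libraries are read, lies under Gm15564, a gene on the opposite strand, and its start overlaps Dtx3l. The strand setting of the counting is not given, so reads of the overlap cannot be told apart by strand. Gm15564 had a median of 3.92 CPM in young, 2.08 in old and 0.810 in nicotinamide-fed kidneys. Its part in the Parp9 values was not tested.

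Parp14 had the largest fold change of the members, and its groups overlapped. It stood at 9.24 to 20.7 CPM in young kidneys (median 12.8) and at 14.0 to 47.8 in old kidneys (median 29.3). All 8 old kidneys lay above the young median and 5 of them above the highest young kidney. The difference was 2.096-fold (95% interval 1.24 to 3.54; log2 fold change 1.07 ± 0.36 SE) and did not pass (edgeR adjusted p = 0.0846). It passed in 4 of 31 alternatives. These were DESeq2 (adjusted p = 0.0279), an edgeR fit of the 2 groups alone (adjusted p = 0.0422), edgeR with the replicate number as a block (adjusted p = 0.0403) and edgeR without nicotinamide replicate 7 (adjusted p = 0.0360). That kidney enters this comparison only through the estimate of spread. Without the 4 kidneys the log2 fold change was 1.02 and did not pass (edgeR adjusted p = 0.0585). Over the 31 alternatives the adjusted p ranged from 0.0279 to 0.178.

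Parp12 was intermediate. Young kidneys stood at 2.82 to 12.01 CPM (median 5.94) and old kidneys at 7.26 to 15.3 CPM (median 12.5). All old kidneys lay above the young median and 5 above the highest young kidney. The difference of 1.71-fold (95% interval 1.19 to 2.46; log2 fold change 0.78 ± 0.26 SE) missed the threshold (edgeR adjusted p = 0.0588) and passed it in 8 of 31 alternatives, with adjusted p of 0.0145 to 0.182. The highest young value was 12.01 CPM in young replicate 3, and without that kidney the log2 fold change was 1.02 (edgeR adjusted p = 0.0145). It was 0.60 without young replicate 4, the lowest young kidney (edgeR adjusted p = 0.182), and 0.65 without the 4 kidneys (edgeR adjusted p = 0.150).

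Parp10, the fourth interferon-inducible member, showed little of this difference. It stood at 7.66 to 19.6 CPM in young (median 16.2) and 11.9 to 22.5 CPM in old kidneys (median 17.6), so the groups overlapped over most of their range. The log2 fold change was 0.23 ± 0.20 SE (95% interval −0.17 to 0.63, edgeR adjusted p = 0.564). Its 3′ end overlaps Plec, a cytoskeletal linker gene on the same strand with medians of 40.2 CPM in young and 59.4 in old kidneys, so reads of the overlap cannot be assigned to either gene and the values of Parp10 are uncertain.

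Among the DNA-break members, Parp1 was the most even between ages. It stood at 26.6 to 34.6 CPM in young and 26.01 to 33.2 CPM in old kidneys, with medians of 30.3 and 30.4. The log2 fold change was −0.02 ± 0.11 SE, and its 95% interval of −0.25 to 0.21 leaves room for a fold change of 0.838 to 1.15. Parp1 and the interferon-inducible members thus had unequal values in the same kidneys, and the difference between them was not tested.

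Parp3 stood at 16.8 to 24.8 CPM in young (median 19.7) and 20.0 to 31.3 CPM in old kidneys (median 24.2). All 8 old kidneys lay above the young median, and 3 above the highest young kidney. The log2 fold change of 0.33 ± 0.14 SE (95% interval 0.05 to 0.60) did not pass (edgeR adjusted p = 0.144) and did not pass in any of the 31 alternatives (adjusted p 0.0942 to 0.290). Parp2 stood at 7.40 to 11.4 CPM in young and 5.95 to 16.7 CPM in old kidneys. The old kidneys spread to both sides of the young range, with 5 above its highest value and 1 below its lowest. The log2 fold change was 0.35 ± 0.23 SE (95% interval −0.12 to 0.82, edgeR adjusted p = 0.426).

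The third class did not pass either. Parp4 stood at 13.4 to 22.2 CPM in young and 13.7 to 20.9 CPM in old kidneys (log2 fold change −0.09 ± 0.16 SE, edgeR adjusted p = 0.804). Parp8 stood at 4.95 to 8.85 CPM in young and 3.99 to 9.30 CPM in old kidneys (−0.09 ± 0.25 SE, edgeR adjusted p = 0.894). Parp6, at 6 to 93 counts per kidney, stood at 1.91 to 7.56 CPM in young and 3.97 to 13.7 CPM in old kidneys. Its highest value, 13.7 CPM, was in old replicate 7, and its log2 fold change of 0.37 ± 0.30 SE (edgeR adjusted p = 0.523) became 0.12 without that kidney and −0.02 without the 4 kidneys. The depth of Parp6 and Parp8 limits what can be said of them.

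**Figure D1:**
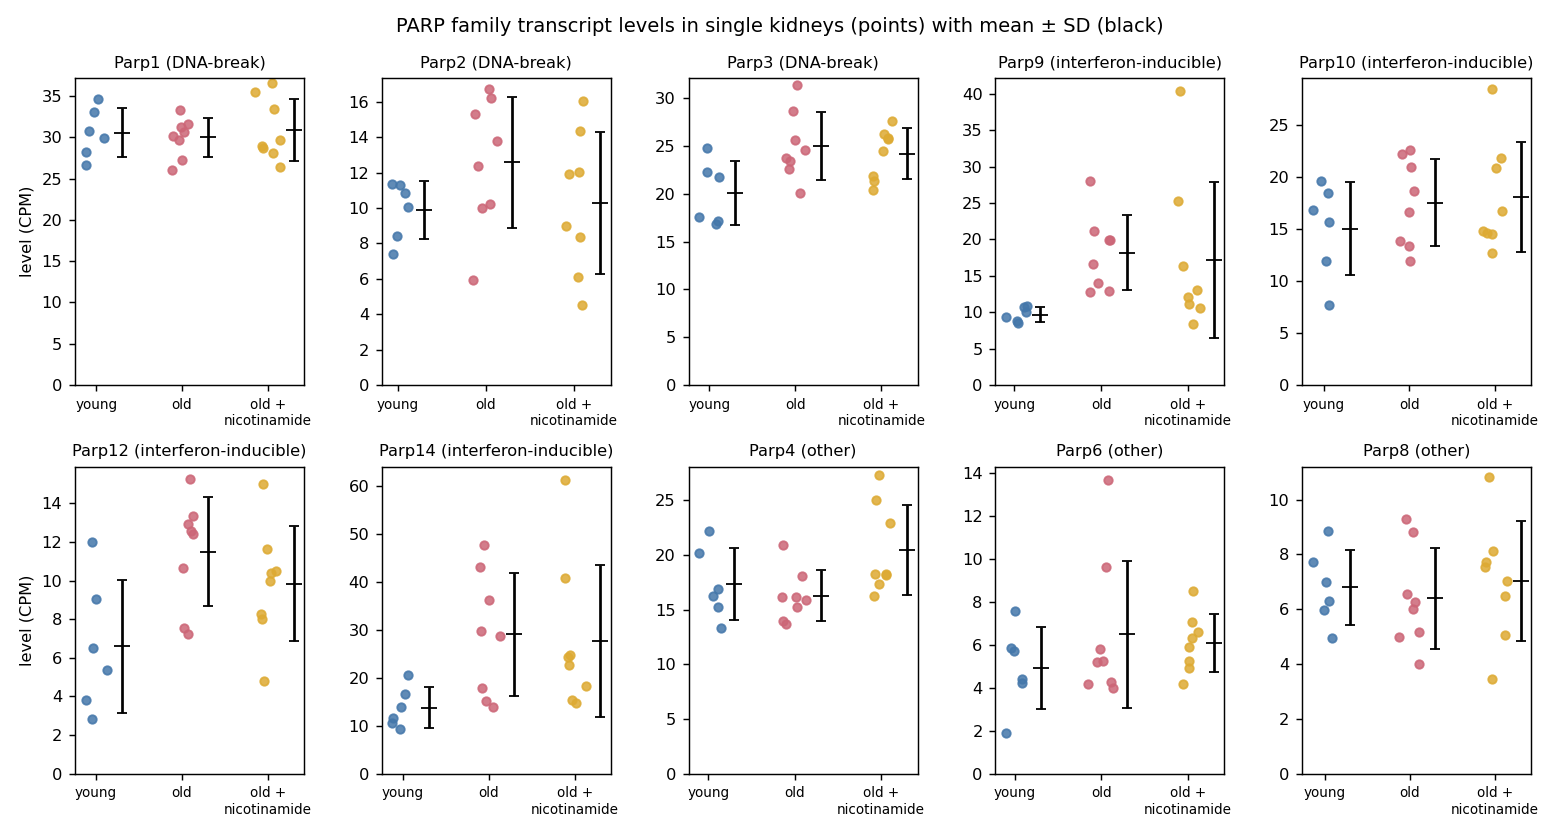
Each panel plots the level of 1 member in CPM (vertical axis, from 0) for the 3 groups, with 1 point per kidney and the mean ± SD in black. Parp9 is the only panel in which every old kidney lies above every young one, while Parp1 covers nearly the same range in all 3 groups. Nicotinamide replicate 7 is the highest point of its group for Parp9, Parp10, Parp12 and Parp14, and also for Parp3 and Parp8.

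The comparison of nicotinamide-fed with untreated old kidneys asks whether the supplement goes with a difference in these genes. None of the 10 members passed in edgeR, where 0.0272% of all tested genes did (0.0136% higher and 0.0136% lower), and none passed in DESeq2 or limma-voom. No member's groups were apart, as those of 0.0136% of all tested genes were in each direction. At an unadjusted p below 0.05 there was 1 member, Parp4, where 6.18% of all tested genes lay below that value. Parp4 stood at 16.2 to 27.3 CPM with nicotinamide (median 18.3) against 13.7 to 20.9 CPM without (median 16.0). All 8 treated kidneys lay above the median of the untreated, 3 of them above the highest, and the groups overlapped. The difference was 1.26-fold (95% interval 1.03 to 1.54; log2 fold change 0.33 ± 0.14 SE, edgeR adjusted p = 0.727), and its log2 value was 0.26 to 0.39 over the 31 alternatives. Without the 4 kidneys, which include the highest treated kidney, it was 0.27 with an unadjusted p of 0.0964.

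For each of the interferon-inducible members, the highest value with nicotinamide was in the same kidney, nicotinamide replicate 7. This was not particular to the class, since the same kidney was also the highest treated kidney for Parp3 (27.6 CPM) and Parp8 (10.8 CPM). Parp9 stood at 8.45 to 40.4 CPM with a median of 12.6, against a median of 18.3 in untreated old kidneys. Nicotinamide replicate 7 held the 40.4 CPM and nicotinamide replicate 1 the next highest value, 25.2 CPM. Of the 8 treated kidneys 4 lay below the lowest untreated old kidney. The log2 fold change was −0.07 ± 0.25 SE (95% interval −0.58 to 0.43, edgeR adjusted p = 0.985). It was −0.38 without nicotinamide replicate 7 (unadjusted p = 0.0530, edgeR adjusted p = 0.826) and −0.56 without the 4 kidneys (unadjusted p = 0.00523, edgeR adjusted p = 0.408), so the size of this value rests on those libraries and the difference did not pass with or without them.

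Parp14 stood at 14.7 to 61.4 CPM with nicotinamide (median 23.6) against a median of 29.3 CPM in untreated old kidneys. The highest value was again in nicotinamide replicate 7, followed by 40.9 CPM in nicotinamide replicate 1. The log2 fold change was −0.06 ± 0.32 SE (95% interval −0.72 to 0.60, edgeR adjusted p = 0.993), −0.33 without nicotinamide replicate 7 and −0.54 without the 4 kidneys. Parp12 stood at 4.81 to 15.02 CPM (median 10.2; log2 fold change −0.22 ± 0.23 SE, 95% interval −0.69 to 0.24, edgeR adjusted p = 0.932). Parp10 stood at 12.7 to 28.4 CPM (median 15.8; 0.04 ± 0.18 SE, 95% interval −0.32 to 0.41, edgeR adjusted p = 0.989). With all kidneys in, 1 of these 4 members had a positive fold change, and without nicotinamide replicate 7 it was also negative (−0.08 for Parp10). Without old replicate 5 the values of Parp9 and Parp14 were instead positive, at 0.04 and 0.08. Over the 31 alternatives the sign differed from the main fit in 3 for Parp9, 4 for Parp10, 5 for Parp14 and 0 for Parp12.

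Nicotinamide replicate 7 also had the highest sum over T and natural killer cell markers, 303.6 CPM, where the other 7 treated kidneys had 18.7 to 40.9 and untreated old kidneys 20.7 to 54.1 CPM. Over the interferon list described later it summed to 3006 CPM, where the next treated kidney, nicotinamide replicate 1, had 1894. The summed level of the 4 interferon-inducible members was 145.2 CPM in that kidney, 48.0 to 93.4 CPM in the other treated kidneys, 56.4 to 104.8 CPM in untreated old and 40.1 to 50.4 CPM in young kidneys. All old kidneys without supplement lay above all young ones in this sum, which was not tested. Of its members only Parp9 had these groups apart, and those of Parp10, Parp12 and Parp14 overlapped. Among single tested genes 1.33% had every old kidney higher, and no such share was taken for sums of genes. In nicotinamide-fed kidneys Ncr1, a natural killer cell receptor, was at 0 counts in every kidney, and in the other groups every T and natural killer cell marker had counts in at least 1 kidney.

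The DNA-break members did not pass with nicotinamide either. Parp1 stood at 26.4 to 36.6 CPM with nicotinamide (median 29.3; log2 fold change 0.04 ± 0.11 SE, 95% interval −0.17 to 0.26, edgeR adjusted p = 0.975). Parp3 stood at 20.4 to 27.6 CPM (median 25.1; −0.05 ± 0.12 SE, 95% interval −0.29 to 0.20, edgeR adjusted p = 0.975). Parp2 stood at 4.51 to 16.0 CPM (median 10.4; −0.29 ± 0.21 SE, 95% interval −0.72 to 0.14, edgeR adjusted p = 0.896). A change of Parp1 beyond 1.19-fold upward or below 0.890-fold lies outside its interval, and for Parp2 the interval runs from 0.608-fold to 1.11-fold. Parp6 and Parp8 had log2 fold changes of −0.09 ± 0.27 and 0.14 ± 0.23 SE, with edgeR adjusted p of 0.982 and 0.963.

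**Figure D2:**
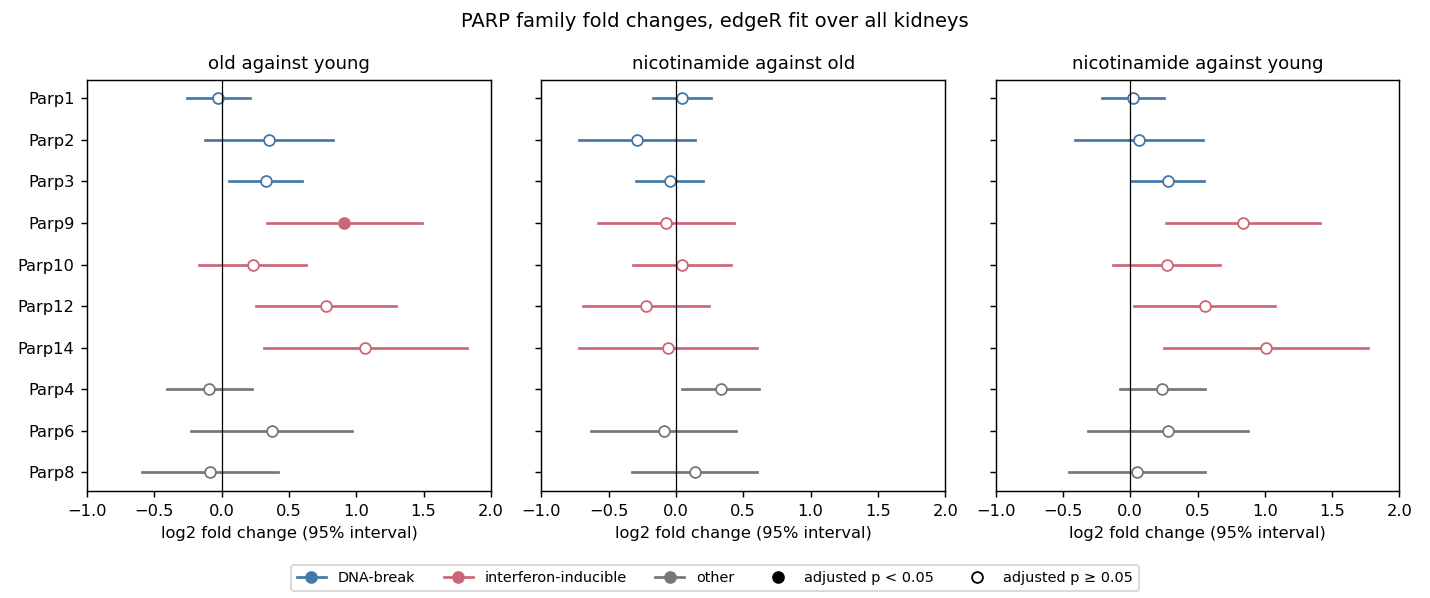
Each panel plots the log2 fold change of the 10 members with its 95% interval (horizontal axis) in 1 comparison, coloured by class, with filled points for an adjusted p below 0.05. The only filled point is Parp9 in old against young; in nicotinamide against old the interval of Parp4 is the only one that leaves out 0, at an adjusted p of 0.727.

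Nicotinamide-fed old kidneys were also set against young kidneys, a comparison that shares its libraries with both others. None of the 10 members passed in edgeR, where 8.7% of all tested genes did (4.73% higher and 3.96% lower). No member's groups were apart, beside 1.13% of all tested genes with every treated kidney higher and 1.08% with every one lower. At an unadjusted p below 0.05 there were 4 members, all higher than in young kidneys: Parp3, Parp9, Parp12 and Parp14. Of all tested genes 21.9% lay below that value. DESeq2 called 2 of the members and limma-voom none. The log2 fold changes were 0.84 ± 0.28 SE for Parp9 (edgeR adjusted p = 0.0600), 1.01 ± 0.36 for Parp14 (edgeR adjusted p = 0.0926) and 0.55 ± 0.26 for Parp12 (edgeR adjusted p = 0.194). Without nicotinamide replicate 7 they were 0.53, 0.74 and 0.44, and without the 4 kidneys 0.35, 0.48 and 0.31, so much of their size came from those libraries.

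The members differed in how much they varied between kidneys of 1 group. This was measured as the variance of the counts over the variance that counting alone gives, which is 1 for pure counting error. Parp1 lay at 1.70 in young, 1.24 in old and 2.84 in nicotinamide-fed kidneys. Parp9 lay at 0.575 in young kidneys, no more than counting error, at 9.09 in old and at 42.7 in nicotinamide-fed kidneys. Parp14 lay at 7.63, 35.7 and 58.5 in the same order. Old and nicotinamide-fed kidneys were thus uneven in Parp14, with coefficients of variation of 44.0% and 57.1%, against 7.85% and 12.1% for Parp1. The values of the nicotinamide group include replicate 7, and the differences in spread were not tested.

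**Figure D3:**
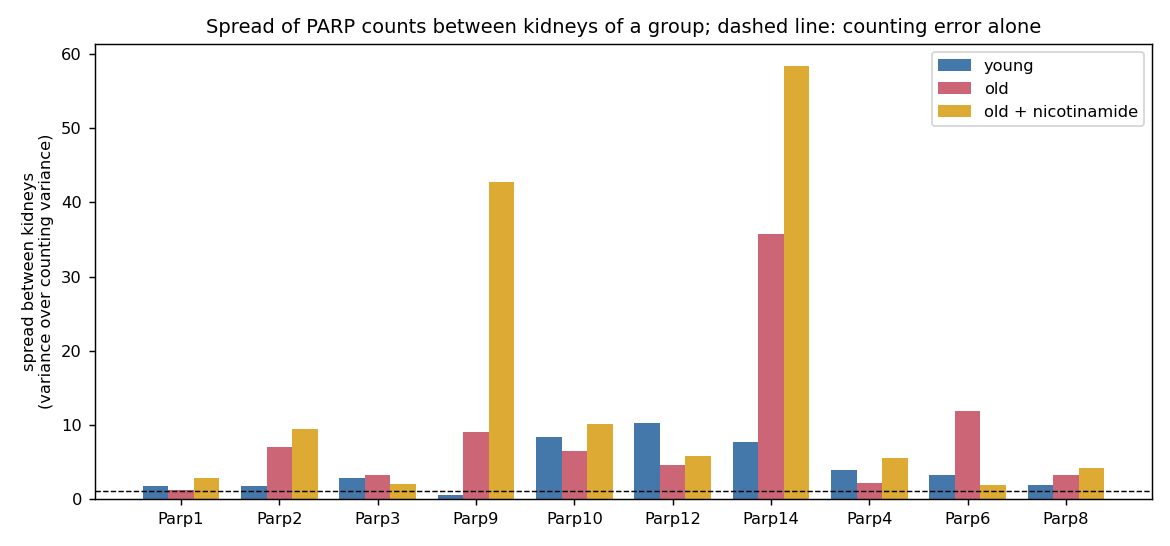
Bars give, for each member and group, the variance of counts between kidneys over the variance of counting alone (vertical axis, from 0), with a dashed line at 1. Parp14 and, with nicotinamide, Parp9 stand far above the line, at up to 58.5 and 42.7, while Parp1 stays below 3.

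Within groups, the members were compared by their deviations from the group mean on the log2 CPM scale over the 22 kidneys. Of 45 pairs of members, 0 passed at an adjusted p below 0.05 by Pearson or Spearman correlation. The highest was Parp9 with Parp14 (Pearson r = 0.70, permutation p = 0.00123, adjusted p = 0.0553; Spearman rho = 0.61, permutation p = 0.00798, adjusted p = 0.224). Without the 2 kidneys farthest in Parp9, nicotinamide replicates 7 and 1, r was 0.51, and without the 4 kidneys 0.54. The lowest was Parp10 with Parp12 (r = −0.47, permutation p = 0.0491, adjusted p = 0.442; rho = −0.41, permutation p = 0.0746, adjusted p = 0.526), with r = −0.57 when the 2 farthest kidneys were left out. Of the 6 pairs of interferon-inducible members 4 had a positive r, with a median of 0.25. Of the 33 pairs from different classes 24 did, with a median of 0.15 and a highest r of 0.51 (Parp14 with Parp8). The classes were not compared by a test. The 3 pairs of DNA-break members had r of 0.09 to 0.36.

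The genes most like Parp14 in the same deviations, among 8703 genes of at least 10 CPM, were Samhd1 (r = 0.84), Oasl2 (0.83), Lgals3bp (0.82), Herc6 (0.81) and Ifitm3 (0.79). Without the 4 kidneys these stood at 0.74 to 0.81. The nearest to Parp9 were Ccnd2 (r = 0.86), Irf9 (0.84), Lgals3bp (0.83), Ifi27 (0.81) and Isg15 (0.81), which fell to 0.56 to 0.64 without the 4 kidneys. The nearest to Parp1 were Cnot4 (r = 0.73), Lpp (0.71), Eva1b (0.69), Pogk (0.68) and Slfn2 (0.68), and without the 4 kidneys they stood at 0.55 to 0.71. All these values were picked as the highest among 8703 genes and were not tested. They are descriptions over 22 kidneys, and the genes compared share each kidney's library, depth and cell composition.

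**Figure D4:**
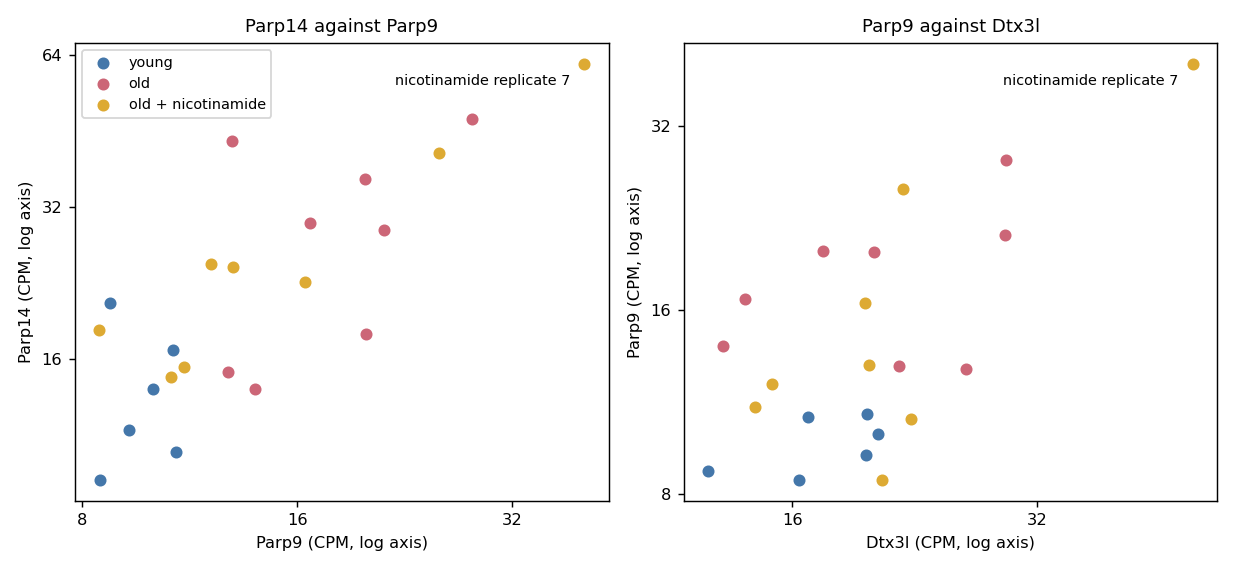
Each point is 1 kidney, with all levels in CPM on log axes: Parp14 (vertical) against Parp9 (horizontal) on the left, and Parp9 (vertical) against its partner Dtx3l (horizontal) on the right. Nicotinamide replicate 7 lies at the upper right of both panels, at 61.4 CPM of Parp14, 40.4 of Parp9 and 49.9 of Dtx3l, and in both panels the young kidneys lie low in Parp9.

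The partners of the interferon-inducible members were read from a list of 54 genes of interferon signalling and response, of which 52 were tested. In old against young kidneys 5 passed, all higher (median log2 fold change 0.67), where 3.9% of all tested genes were called higher. At an unadjusted p below 0.05 there were 29, all higher, where 20.7% of all tested genes lay below that value in either direction. Among the 5 that passed were Ifngr1, a chain of the interferon gamma receptor (0.67 ± 0.14 SE, edgeR adjusted p = 0.00158), Irf9, the DNA-binding subunit of the factor ISGF3 (1.06 ± 0.24, edgeR adjusted p = 0.00949), and Usp18, which removes ISG15 and damps interferon signalling (1.97 ± 0.50, edgeR adjusted p = 0.0105). The others were Bst2, which tethers virus particles (1.71 ± 0.43, edgeR adjusted p = 0.0203), and Psmb9, a subunit of the immunoproteasome (1.001 ± 0.288, edgeR adjusted p = 0.0342). The call of Usp18 was lost in 1 of the 30 alternatives that tested it, that of Bst2 in 1 of 31 and that of Psmb9 in 10 of 31. Usp18 was low, at a mean of 1.01 CPM in young and 3.92 CPM in old kidneys. It may have passed the filter on counts through the groups where it is higher, so the size of its fold change is uncertain. The number of list genes that passed was 18 without nicotinamide replicate 7 and 17 of 51 without the 4 kidneys. It was 13 in DESeq2, 12 with a replicate block and 8 in limma-voom. The number of all tested genes called higher also moved, from 572 in the main fit to between 395 and 759 over the 31 alternatives.

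Dtx3l, the ligase partner of Parp9, did not pass. It stood at 12.6 to 20.4 CPM in young (median 18.2), 13.1 to 29.3 in old (median 20.9) and 14.4 to 49.9 CPM in nicotinamide-fed kidneys (median 20.3). Its groups overlapped, and its log2 fold change with age was 0.29 ± 0.23 SE (95% interval −0.19 to 0.76, edgeR adjusted p = 0.539), beside 0.91 for Parp9. The difference between the partners was not tested. With nicotinamide none of the 52 genes passed against old kidneys in edgeR, DESeq2 or limma-voom. Among them 1 had an unadjusted p below 0.05, where 6.18% of all tested genes did. The 52 genes had a median log2 fold change of 0.06, and of −0.14 without nicotinamide replicate 7. Against young kidneys 15 of the 52 passed in edgeR, all higher (median 0.91), where 4.73% of all tested genes were called higher. That number was 20 in DESeq2, 10 in limma-voom, 9 without nicotinamide replicate 7 and 7 of 51 without the 4 kidneys.

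Markers of several immune cell types were also called higher in old kidneys. Over all tested genes 3.9% were called higher in this comparison. Of 16 macrophage and dendritic cell markers 12 were called higher in old kidneys (median 1.37), and their summed level was 159.1 to 195.3 CPM in young and 288.6 to 541.2 CPM in old kidneys, with no overlap and none at 0. T and natural killer cell markers summed to 10.2 to 21.3 CPM in young and 20.7 to 54.1 in old kidneys. Of the 15 listed 9 were tested, and 2 of these were called higher. B and plasma cell markers (12 listed, 9 tested), with 4 of 9 called higher and 7 of 9 at a positive fold change, summed to 503.6 to 1154 and 1352 to 3806 CPM, and Cd79a was at 0 in all young kidneys. A marker that is low in young kidneys can pass the filter on counts through the groups where it is higher. The direction among the tested T, natural killer and B cell markers can thus be set in part by the filter. Neutrophil markers (6 listed, 2 tested) summed to at most 9.46 CPM in either group and had 0 of 2 tested genes called in edgeR (1 at an unadjusted p below 0.05), with Ly6g at 0 in both groups. Endothelial markers had 1 of 10 called higher. With nicotinamide the macrophage sum was 313.7 to 616.2 CPM, and the B and plasma cell sum was 430.6 to 2940 CPM. Against old kidneys, none of these immune markers passed in edgeR, and the 9 tested B and plasma cell markers had a median log2 fold change of −0.89, with 3 lower at an unadjusted p below 0.05. Of the 16 macrophage and dendritic cell markers 1 was higher at that value, and of the T, natural killer cell and neutrophil markers 0 were. The part of these cells in the values of Parp9, Parp12 and Parp14 was not tested.

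The partners of the DNA-break members showed no calls. Of 22 genes for PARP1 partners and strand-break repair, none passed in edgeR with age, where 7.04% of all tested genes did. None of the 22 passed in edgeR with nicotinamide, where 0.0272% of all tested genes did. With age 3 had an unadjusted p below 0.05, where 20.7% of all tested genes did, and the median log2 fold change was −0.01. With nicotinamide 2 did, where 6.18% of all tested genes did, and the median was 0.02. Hpf1, which completes the active site of PARP1 and PARP2 for modifying serines, stood at 19.6 to 28.3 CPM in young, 14.9 to 23.1 in old and 17.2 to 24.3 CPM in nicotinamide-fed kidneys. Its log2 fold change with age was −0.29 ± 0.14 SE (95% interval −0.57 to −0.01, edgeR adjusted p = 0.220). Of 10 tested genes that remove ADP-ribose, none had an unadjusted p below 0.05 in either main comparison. Parg, which degrades the chains, stood at medians of 18.8, 17.5 and 16.8 CPM in young, old and nicotinamide-fed kidneys (0.06 ± 0.17 SE with age, edgeR adjusted p = 0.890).

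Of 6 further PARP family genes none passed in edgeR with age or with nicotinamide, where 7.04% and 0.0272% of all tested genes did. At an unadjusted p below 0.05 there were 0 with nicotinamide, where 6.18% of all tested genes lay below that value. With age there was 1, where 20.7% of all tested genes did. That gene was Tiparp, also called PARP7, a target of the aryl hydrocarbon receptor. It stood at 55.2 to 62.4 CPM in young (median 58.2), 41.9 to 63.1 in old (median 46.2) and 34.6 to 56.8 CPM in nicotinamide-fed kidneys (median 42.5). Its log2 fold change was −0.25 ± 0.11 SE in old against young (edgeR adjusted p = 0.179) and −0.16 ± 0.10 in nicotinamide against old (edgeR adjusted p = 0.864). It was lower in nicotinamide-fed than in young kidneys, by 0.41 ± 0.11 on the log2 scale (edgeR adjusted p = 0.0146), where 3.96% of all tested genes were called lower. The call held in all 31 alternatives (adjusted p 0.00538 to 0.0456). Tnks, a tankyrase that marks proteins for degradation, stood at medians of 30.9, 28.3 and 27.3 CPM (−0.04 ± 0.13 SE with age, edgeR adjusted p = 0.912). Among 18 tested genes of NAD supply and other NAD consumers 2 passed with age, both lower, where 3.15% of all tested genes were called lower. They were the NAD kinases Nadk (−0.37 ± 0.09 SE, edgeR adjusted p = 0.00645) and Nadk2 (−0.60 ± 0.17, edgeR adjusted p = 0.0212, lost in 4 of 31 alternatives). With nicotinamide none passed in edgeR, DESeq2 or limma-voom, and 0 had an unadjusted p below 0.05.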

How the data were processed

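QuantSeq 3′ libraries of 22 mouse kidneys were analysed. The authors' deposited values are whole-number counts, 1 row for each mouse Ensembl gene; STAR and HTSeq are named in the submitters' processing notes, without versions. The notes name GRCh38, a human build, and the sources used here do not give the strand setting. The counts carry no coordinates, and those of promoters are RefSeq's. HTSeq's unassigned reads (19.1% to 24.7% in no gene, 0.512% to 0.569% ambiguous) were left out. A 3′ read can miss a gene whose end is annotated wrongly or overlapped.

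The members and lists were chosen with earlier results of these data known. Symbols came from GENCODE M21 (55141 of 55487 identifiers). Groups came from sample titles. filterByExpr (minimum count 10) kept 14683 genes. All kidneys entered 1 edgeR 4.0.16 fit (TMM, robust, no covariates; R 4.3.3), tested two-sided, with SE = |log2 fold change| / √F. The fit was tested on simulated data. limma 3.58.1, DESeq2 1.42.0, other factors and filters, a replicate block and left-out kidneys were the alternatives. Correlations used 100000 permutations within groups. Pairs of libraries within a group differed beyond counting error (chi-square divided by its degrees of freedom, 5.33 to 35.6). The planned protein comparison was not made here. Named were all members, pathway list genes past the threshold in a main comparison (up to 6 by p), Dtx3l, Hpf1, Parg, Tnks and Tiparp, and the 5 genes nearest to Parp1, Parp9 and Parp14. 1 further gene of this rule is not reported here.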

Additional observations from a re-analysis of the deposited data

Results flagged for a closer look

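In each group the highest and lowest kidney were compared with the next one by Dixon's test at the 95% level, in 45 groups of values (10 members and 5 named partners in 3 groups each). Chance alone flags about 1 in 20 groups. Of the 30 groups of member values 0 stood out. Of the partners, Dtx3l was 49.9 CPM in nicotinamide replicate 7, where the next kidney had 22.4. Parg was 31.9 CPM in old replicate 6, where the next had 22.2.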

How the results depend on the processing

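Over 30 values of the members and 31 alternatives each, the verdict was the same in 897 of 930 cases, a call was lost in 14 (all Parp9 with age), gained in 19, and reversed in 0. A value called in neither fit counts as the same even where its sign changed. The sign changed in at most 5 of 31 alternatives, for Parp14 and Parp6 in nicotinamide against old and for Parp1 in nicotinamide against young. With age it changed in 0 for Parp9, Parp12 and Parp14. With age, the number of members past the threshold was 1, against 3 in DESeq2 and in the fit of 2 groups, 2 with no filter, 0 in limma-voom and 0 to 2 when 1 kidney was left out. With nicotinamide against young it was 0, against 2 in DESeq2, 1 with no filter and 0 to 1 when 1 kidney was left out. The replicate numbers did not pair the kidneys (20 equal-numbered pairs, correlations −0.08 to 0.06; 2 libraries matched their own number best). A replicate block gave 2 members with age, Parp9 and Parp14, and 1 gene higher in nicotinamide against old. Over all genes, 462 were lower with age, against 267 to 653 when 1 kidney was left out (267, 273 and 299 without young replicates 2 and 4 and old replicate 7). In nicotinamide against old, 2 were higher and 2 lower, against 0 to 3 and 1 to 6 when 1 kidney was left out, 1 higher in limma-voom, 7 lower in DESeq2, 5 lower with no filter, 1 lower in the fit of 2 groups, and 1 higher and 5 lower without the 4 kidneys. In nicotinamide against young, 695 were higher and 582 lower, against 442 and 359 without the 4 kidneys, and 479 to 740 and 356 to 698 when 1 kidney was left out. The cause was not tested. Counts of 6 to 93 per kidney limit Parp6, and 20 to 72 limit Parp8.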
